A study of Saccharomyces cerevisiae with 7 samples.

Results

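The data described here are the 3 control arrays of a series of 7 yeast microarrays, and they were selected by the treatment label alone, without use of any measured value. All 7 arrays carry RNA of the haploid laboratory strain CEN.PK113-7D of Saccharomyces cerevisiae, a single strain without a genetic change in any group. The 3 control cultures were aerobic chemostats at pH 3.5 and 30 °C, fed with 7.5 g/l glucose as the limiting nutrient. Their medium was renewed at a dilution rate of 0.1 per h. The other 2 groups, which add galacturonic acid or galactose to the same medium, were not used here. Each gene was represented by the probe set, a group of short oligonucleotides on the array, that was listed for that gene alone and was brightest over the 3 arrays. This gave 5656 genes from 6504 single-gene probe sets among 9335 probe sets on the array. The labels give each control array its own culture code, and nothing further is said about how separate the cultures were.

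In a chemostat, fresh medium enters and culture leaves at the same constant rate, so that the cells grow at a rate fixed by the pump while the residual concentration of the limiting nutrient stays very low. Budding yeast ferments when glucose is plentiful and represses genes for respiration and for the use of other carbon sources, a response known as glucose repression. When glucose is scarce and oxygen is present, the sugar is respired, high-affinity glucose carriers are used, and many glucose-repressed genes are transcribed. The deposited values are intensities, the brightness of a probe set on a linear scale. Intensity depends on the oligonucleotides as well as on the transcript, so values of different genes stand side by side here without ratios between them, and ranks order brightness and not the number of transcripts. In RNA from a whole culture, fewer expressing cells and less RNA per cell cannot be told apart.

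Genes at or below an intensity of 12 on all 3 arrays are called silent below. The word describes the reading and not transcription: the value is only an upper bound, and silent genes have no order among themselves. By that rule 503 of 5656 genes were silent, or 8.89%. Another 4846 genes were above 12 on all 3 arrays and 307 on some of them. The median gene had a mean intensity of 77.1. The brightest 10% held 566 genes, and the rank of a gene is also given as a percentile on which the brightest gene is at 100. At the boundary for silent genes, SWI3 and PIR5 had a highest value of 12 and counted as silent, while KTD1 and PRK1 had a highest value of 12.1 and did not. SWI3 encodes a subunit of the SWI/SNF chromatin remodelling complex, and its readings were 10.5, 12 and 10.9. At the boundary of the brightest 10%, the last genes inside were SCS7 and TMH18 and the first outside were SDH6 and MGR2, with mean intensities of 572, 597, 572 and 617. The ranking used the mean of log2 values, so the order of these means need not match it.

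The 3 arrays were close to each other, and array 1 stood somewhat apart. Over all genes on the log2 scale with the floor of 12, Pearson's r was 0.978 between arrays 2 and 3, 0.965 between arrays 1 and 2, and 0.959 between arrays 1 and 3. The points of these correlations are genes, which are not independent replicates. Between arrays 2 and 3, 155 genes differed by more than 2-fold, against 461 between arrays 1 and 2 and 519 between arrays 1 and 3. Median gene intensity was 69.25, 83.45 and 77.25 on arrays 1, 2 and 3. The ratio of the 3′ to the 5′ probe set of a gene is a control for RNA integrity and labelling. For SPT15 it was 2.75 on array 1, 1.71 on array 2 and 1.66 on array 3. For ACT1 it was 1.23, 1.07 and 1.19, and for SRB4 it was high on all 3 arrays, at 5.41, 5.03 and 4.33. With 3 arrays, every value below has limited precision.

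Genes that mark the mating type and ploidy of the strain were checked against its label as a haploid of mating type a. The 7 genes specific to a cells held no silent member, which is near the 8.89% of all genes. MFA2, which encodes the a-factor pheromone, was in the brightest 10% at 632.2, 604.3 and 620.0. STE2, the receptor for alpha-factor, was read at 69.1, 127.9 and 80.0, and BAR1, the protease that degrades alpha-factor, at 65.9, 141.6 and 113.1. The agglutinin subunit AGA2 had 78.7, 148.9 and 143.8, the a-factor exporter STE6 had 34.9, 104.5 and 56.8, and ASG7 had 12.4, 17.8 and 11.8. Of the 5 genes specific to alpha cells, 2 were silent, against 8.89% of all genes, and none was in the brightest 10%. STE3, the receptor for a-factor, had 18.6, 35 and 23.9, and the alpha-factor gene MF(ALPHA)1 had 18.7, 42.8 and 37.9. The alpha-agglutinin SAG1 had 31.6, 31.4 and 33.0, and MF(ALPHA)2 and AFB1 were the silent members. No alpha-specific gene lay above percentile 26.3 (SAG1), and the list of a-specific genes ranged from percentile 11.6 (ASG7) to 92.4 (MFA1). Meiosis and sporulation need a diploid, and 17 of the 24 measured genes of that list were silent, against 8.89% of all genes. None of the 24 reached the brightest 10%. The brightest of them was SPR6 at 64.9, 109.7 and 86.7. IME1, the inducer of meiosis, was above the floor at 38.4, 40.1 and 33.5. RME1, the repressor of IME1 in haploids, was in the brightest 10% at 569.0, 703.1 and 853.2. It was the only one of 12 haploid-specific genes there. That list had a median percentile of 41.1, against 50 for all genes, and reached down to 9.6 (FUS1).

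The brightest single gene was CCW12, which encodes an abundant mannoprotein of the cell wall. CCW12 was read at 8575.9, 7290.2 and 8386.8, a mean of 8084 ± 694 (SD, n = 3 arrays). The 20 brightest genes fell into few kinds. Ribosomal protein genes made up 6 of them (RPS21A, RPL21B, RPS26A, RPS21B, RPS22A and RPL17A), and HYP2, the translation factor eIF5A, also belongs to protein synthesis. The glycolytic genes TDH3, ENO1 and TPI1 were among them, as was ADH2, the alcohol dehydrogenase that oxidises ethanol. Cell wall proteins gave CCW12, TIP1 and HPF1. The chaperone SSA1 of the Hsp70 family and the stress-induced genes DDR2 and HSP12 gave 3 more. ERG3, a sterol desaturase of ergosterol synthesis, ARF1, a small GTPase of vesicle traffic, and the little-studied YDR524C-B made up the rest. Of these 20, 8 were read by probe sets that share oligonucleotides with other transcripts or fell short of the usual design rules, according to the suffix of the probe set name (SSA1, TDH3, RPS21A, YDR524C-B, RPS26A, RPS21B, ENO1 and RPL17A). Their levels may include signal of near-identical copies. Over all genes, 282 of 5656 had such a suffix.

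**Figure D1:**
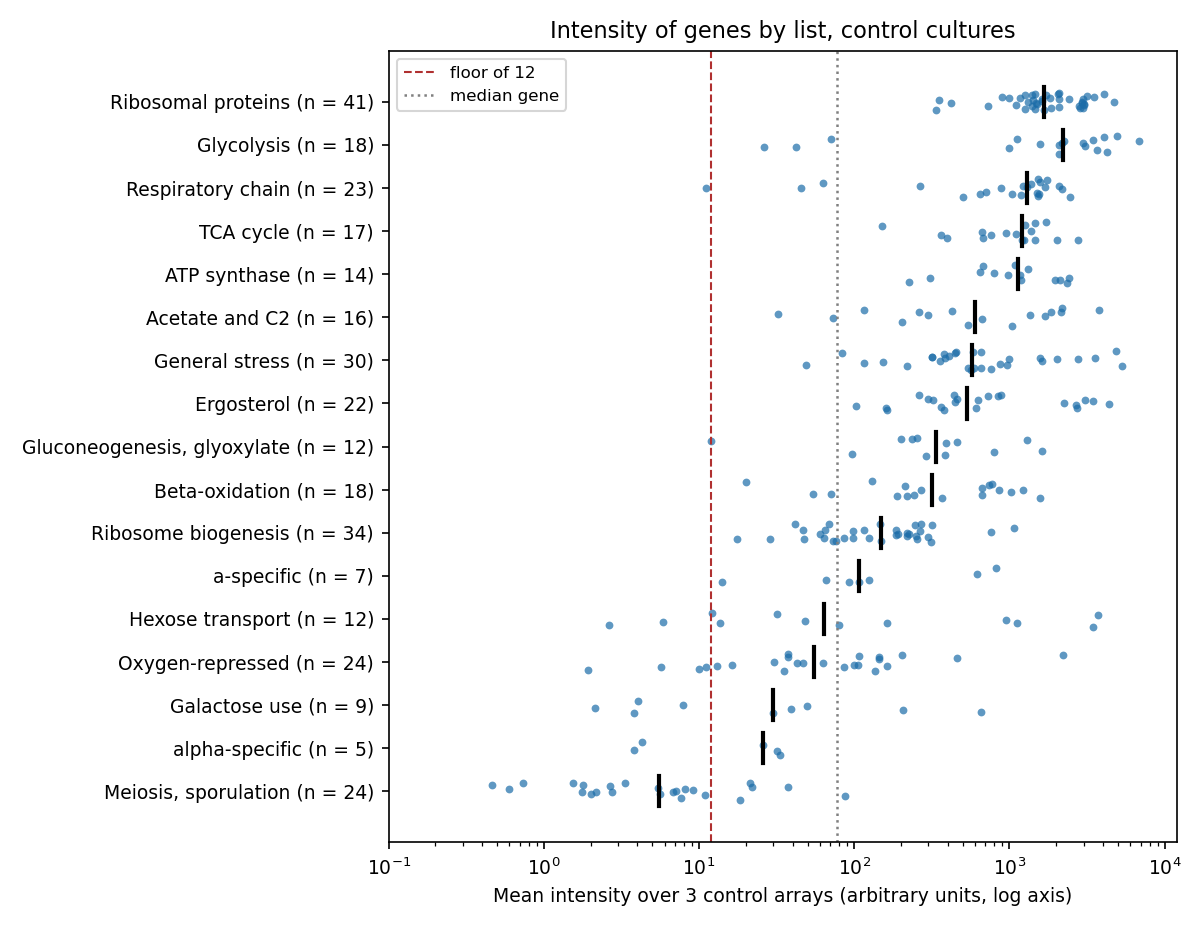
Intensity of every measured gene of selected lists on a log axis, as the mean of the 3 control arrays without a floor. Each point is a gene, the bar is the list's median, and lines mark the floor of 12 and the median gene. Glycolysis, ribosomal proteins, the citric acid cycle and the respiratory chain sit high, the galactose and meiosis lists lie low, and hexose transporters span the whole range.

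Glycolysis, the pathway that splits glucose to pyruvate, was bright throughout. Of its 18 measured genes, 15 were in the brightest 10%, where 10% of all genes are by definition, and none was silent. The median gene of the list lay at percentile 98.2, against 50 for all genes. The 3 exceptions, GPM2, GPM3 and PYK2, are minor isoforms whose paralogs GPM1 and CDC19 carry the main activity. TDH3, the major glyceraldehyde-3-phosphate dehydrogenase, was read at 7083.4, 5246.6 and 8163.0, and FBA1, the aldolase, at 4238.0, 3429.1 and 3257.4. The phosphofructokinase subunits PFK1 and PFK2 had 1026.4, 920.5 and 1044.4, and 1990.7, 1236.2 and 1456.1. GPM1, the phosphoglycerate mutase, had 4503.2, 4175.3 and 3596.9, and the enolase ENO2 had 2755.3, 2624.1 and 3579.5. The kinase PGK1 had 2826.8, 2392.6 and 3913.5, the isomerase PGI1 had 2933.3, 1702.9 and 2063.6, and TDH1 had 2455.8, 2266.2 and 1508.2. No array was the highest for all of these genes. The minor isoforms GPM2 and GPM3 had 67.0, 58.0 and 88.1, and 24.5, 27.5 and 26.4. TDH2 had no probe set of its own in the annotation and is not reported here.

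Among the enzymes that phosphorylate glucose, all 3 were in the brightest 10%. HXK1, a hexokinase known to be repressed by glucose, had 2579.6, 1600.4 and 2329.6. HXK2, the hexokinase of growth on abundant glucose and a regulator of glucose repression, had 683.0, 1211.9 and 1434.0, and the glucokinase GLK1 had 3053.3, 1632.7 and 1574.7. HXK1 and GLK1 were highest on array 1, where HXK2 was lowest.

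Fermentation genes were mixed, with 4 of 11 in the brightest 10% and 1 silent. PDC1, the main pyruvate decarboxylase, had 2424.5, 1843.3 and 1939.4, and its paralog PDC5 had 86.0, 78.0 and 69.9. The main fermentative alcohol dehydrogenase ADH1 had 4562.0, 3039.3 and 3631.8, and ADH2, which is repressed by glucose in yeast, had 6062.2, 4331.2 and 5397.0. ADH3, the mitochondrial enzyme, had 1111.7, 1480.4 and 1178.4. These 4 dehydrogenase and decarboxylase genes were above 1000 on every array. ADH4, ADH5, ADH6 and SFA1 were between 69.5 and 369.4, and ADH7 was silent.

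The genes for the use of acetate and other C2 compounds were also bright, with 8 of 16 in the brightest 10% and none silent. ALD4, the mitochondrial acetaldehyde dehydrogenase, had 4390.8, 3351.7 and 3549.3. The cytosolic enzyme ALD6 had 751.9, 1067.6 and 1314.1. ACS1, the acetyl-CoA synthetase known to be repressed by glucose, had 3545.8, 1701.4 and 1312.3, and ACS2, the essential isoenzyme, had 1336.8, 1344.4 and 1366.9. ACS2 was among the steadiest genes of the list, with an SD of 0.02 on the log2 scale, and ACS1 had 0.74. JEN1, the carrier of lactate and pyruvate, was read at 2755.0, 1991.7 and 1693.0. The putative ammonium and acetate exporters ATO2 and ATO3 had 2871.9, 1855.9 and 814.9, and 2178.7, 1171.7 and 1725.4. The acetate carrier ADY2, of the same protein family, had 672.7, 323.3 and 277.2. The carnitine acetyltransferases, which pass acetyl groups between compartments, differed in brightness: CAT2 had 880.7, 610.2 and 507.4, YAT1 had 312.3, 119.2 and 176.9, and YAT2 had 304.9, 349.6 and 234.5. Their carrier CRC1 had 77.8, 90.9 and 50.3. ACH1, a CoA transferase that acts on acetate, had 547.3, 346.7 and 719.0, and the mitochondrial dehydrogenase ALD5 had 231.7, 195.7 and 357.5, both highest on array 3. ALD2 and ALD3, known to be induced by stress, were dimmer, at 25.3 to 175.0.

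Genes of gluconeogenesis and the glyoxylate cycle, which let yeast build sugar from C2 compounds, ranged widely. The list had 3 of 12 in the brightest 10%, none silent, and a median percentile of 82.8. MDH2, the cytosolic malate dehydrogenase, had 1352.7, 1222.6 and 1314.1, and ICL1, the isocitrate lyase, had 849.2, 645.1 and 876.5. AGX1, an alanine:glyoxylate aminotransferase, had 1596.5, 1302.0 and 1969.4. The 2 enzymes particular to gluconeogenesis were read lower: FBP1, the fructose-1,6-bisphosphatase, at 221.2, 223.2 and 156.8, and PCK1, the phosphoenolpyruvate carboxykinase, at 49.2, 155.1 and 84.9. PCK1 varied most on the list, with an SD of 0.83 on the log2 scale. Between these lay SFC1, the mitochondrial succinate and fumarate carrier, at 432.8, 515.5 and 428.4, and the cytosolic isocitrate dehydrogenase IDP2 at 417.3, 450.1 and 300.5. The peroxisomal citrate synthase CIT2 had 265.6, 265.1 and 231.5, the mitochondrial carrier ODC1 had 237.5, 272.1 and 198.4, and ICL2, a mitochondrial paralog of ICL1, had 346.8, 204.4 and 314.2. DAL7, a malate synthase of allantoin use, was above the floor on 1 array, and its paralog MLS1 had 251.6, 492.3 and 413.8.

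Nuclear genes of respiration were nearly all bright. In the citric acid cycle 14 of 17 genes were in the brightest 10%, with a median percentile of 95.2. The respiratory chain had 18 of 23, with a median percentile of 95.7, and the mitochondrial ATP synthase 12 of 14, with a median percentile of 94.8. None of these 3 lists had a silent gene, but all of their members are nuclear genes. Of the subunits encoded in the mitochondrion, COX2, COX3, ATP6 and ATP8 were silent and COB was above the floor on 1 array. COX1 and OLI1 were above it on all 3. SDH2, the iron-sulfur subunit of succinate dehydrogenase, had 2665.0, 2882.6 and 2796.2, and ACO1, the aconitase, had 2077.4, 2133.8 and 1887.7. COX12 of cytochrome oxidase had 2833.8, 2364.3 and 2209.9, and ATP3, the gamma subunit of the synthase, 2481.5, 2328.9 and 2444.9. Those subunits differed little between the arrays, while CIT1, the mitochondrial citrate synthase, had 2137.9, 1550.9 and 721.8 and CYT1, cytochrome c1, had 739.2, 514.8 and 251.9, each lowest on array 3. The dimmest gene of the respiratory chain list was COX5B, the hypoxic form of cytochrome oxidase subunit V, at 8.3, 13.0 and 12.1.

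Beta-oxidation of fatty acids had 8 of 18 genes in the brightest 10% and none silent, with a median percentile of 82.5. FOX2, the multifunctional enzyme of the peroxisomal pathway, had 1909.0, 1478.5 and 1343.1, and the thioesterase TES1 had 1412.3, 1121.7 and 1146.4. Array 1 was the highest of the 3 for 15 of the 18, where it was the highest for 27.8% of all genes above the floor on any array. ANT1, the peroxisomal ATP carrier, was the widest of the list in spread and ran the other way, at 108.2, 265.0 and 283.3.

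Hexose transporters covered the full range of brightness. Of 12 measured genes, 4 were in the brightest 10% and 2 were silent. The high-affinity carriers HXT6 and HXT7 had 4092.7, 3211.9 and 3903.6, and 3018.7, 3555.4 and 3804.9. Both were read by family probe sets and their coding sequences are nearly identical, so their signals cannot be separated. HXT2, another carrier of low glucose, had 1405.9, 744.1 and 705.8, and HXT5, a carrier linked to slow growth, had 1558.4, 677.8 and 1121.7. HXT3, a low-affinity carrier, had 103.1, 218.9 and 165.4, HXT4 had 24.1, 80.8 and 38.5, and HXT1, the low-affinity carrier of glucose excess, had 16.4, 9.1 and 11. HXT1 exceeded the floor on 1 array. The glucose sensors were dim but measured on all arrays, RGT2 at 74.3, 71.1 and 95.3 and SNF3 at 24.0, 36.0 and 35.5. HXT10 and HXT14 were silent, and HXT8 was above the floor on array 1 alone, at 26.3. Another 7 transporters of the list, HXT9, HXT11 to HXT13 and HXT15 to HXT17, lacked a single-gene probe set and are not reported here.

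The galactose pathway was silent at its structural genes and measured at its regulators. GAL1 (galactokinase), GAL7 (transferase), GAL10 (epimerase) and GAL2 (the galactose permease) were silent, with no value above 8.6, so that 4 of 9 genes of the list were silent. GAL7, GAL10 and GAL1 stand next to each other on chromosome II. GAL4, the activator, had 51.9, 33.7 and 32.6, GAL80, its inhibitor, had 64.6, 46.6 and 38.5, and GAL3, the galactose sensor, had 23.3, 21.8 and 44.8. GAL11, a subunit of the Mediator complex, had 239.8, 198.5 and 181.5. PGM2, the phosphoglucomutase that is shared with glycogen metabolism, was in the brightest 10% at 813.6, 712.0 and 451.5. Among genes for maltose and sucrose, 0 of 7 were silent. The invertase gene SUC2 had 559.1, 468.3 and 599.4, and MAL11, a carrier of maltose and related glucosides, had 1124.8, 244.5 and 369.9, which made it one of the most variable genes of the set.

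Genes of glucose sensing and repression were of middling brightness, with 1 of 35 in the brightest 10%, 1 silent and a median percentile of 57.3. BCY1, the regulatory subunit of protein kinase A, had 792.7, 582.1 and 502.4, and RAS2 had 566.1, 591.4 and 357.4. MIG3 was silent and its paralog MIG2, a repressor induced by high glucose, was above the floor on 1 array at 15.4. CAT8 and ADR1, activators of genes for growth on non-fermentable carbon, had 46.9, 57.7 and 45.1, and 113.2, 113.4 and 87.7. HAP4, the regulatory subunit of the activator of respiratory genes, had 287.7, 384.3 and 265.5. CAT8, ADR1 and HAP4 were chosen after their values were seen.

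Stress and reserve genes stood high in these slow-growing cultures. Of 30 genes of the general stress list, 14 were in the brightest 10% and none was silent, with a median percentile of 89.8. HSP12, a membrane-associated protein of stress, had 6009.3, 3802.9 and 4854.3, and DDR2 had 6200.5, 4338.8 and 5355.6. Array 1 was the highest for 19 of the 30, against 27.8% of all genes above the floor. HSP30, a negative regulator of the plasma membrane proton pump, went the other way at 913.1, 1509.1 and 2260.4. Trehalose and glycogen synthesis had 4 of 17 in the brightest 10%, with TPS1, the trehalose-6-phosphate synthase, at 1037.9, 768.8 and 783.5. On the list of genes linked to stationary phase 6 of 14 were in the brightest 10%, with SPG4 at 4493.1, 2629.2 and 2019.0 and YGP1, a secreted glycoprotein, at 2728.1, 1675.8 and 1653.2. The dimmest of these, XBP1, a repressor induced by starvation and stress, had 145.4, 38.9 and 50.5.

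The genes known to be induced when oxygen is low had a share of silent members near that of all genes. Of 24 measured genes on the hypoxic list, 2 were silent, against 8.89% of all genes, and 1, the fatty acid desaturase OLE1 at 2054.5, 1966.1 and 2622.8, was in the brightest 10%. HEM13, a haem synthesis enzyme induced without oxygen, had 23.6, 39.3 and 48.5, and DAN1, an anaerobic cell wall protein, had 9.6, 22.8 and 16.4. Other anaerobic cell wall genes were brighter: the mannoprotein TIR1 had 199.7, 87.9 and 118.6, and the seripauperin PAU3, read by a family probe set, had 43.3, 116.4 and 155.0. The low-affinity iron carrier FET4 was silent. Ergosterol synthesis, which needs oxygen, had 11 of 22 genes in the brightest 10% and none silent, with ERG25 at 3436.8, 3503.9 and 3414.7. HEM13, DAN1 and TIR1 were chosen after their values were seen.

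Markers of the supply of other nutrients ranged from silent to bright. The median gene lay at percentile 38.1 in the iron list and 47.9 in the phosphate list, and at 71.8 in the nitrogen catabolite list and 83.4 in the sulfur list. PHO5, the secreted acid phosphatase of phosphate starvation, was silent at 0.2 on all arrays, and PHO84, the high-affinity phosphate carrier, had 15.5, 14.7 and 10.0. The iron list had no gene in the brightest 10% and 3 of 24 silent, among them the reductase FRE3, and its brightest member FIT3, a cell wall protein of iron uptake, had 675.2, 317.5 and 384.5. The list of nitrogen catabolite genes had 5 of 29 in the brightest 10%, led by GDH1, the glutamate dehydrogenase of ammonium assimilation, at 1557.1, 2048.8 and 1757.6. The permeases of poor nitrogen sources MEP2 (ammonium) and GAP1 (amino acids) had 497.2, 594.7 and 715.9, and 448.3, 441.0 and 441.1. The repressor DAL80 was silent, and the allantoin permease DAL4 was at 9.5, 30.9 and 33.9. Amino acid synthesis was high, with 18 of 46 genes in the brightest 10% and none silent, and so was sulfur assimilation, with 6 of 26. GCN4, the activator of amino acid synthesis genes, had 3007.2, 3598.6 and 3293.5, and MET17, the sulfhydrylase, had 3680.6, 2518.3 and 2661.1. PHO84, MEP2 and GAP1 were chosen after their values were seen.

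Protein synthesis genes were bright, and the factors that build ribosomes less so. Of 41 measured ribosomal protein genes, 38 were in the brightest 10%, none was silent and the median percentile was 97.2. RPS3 had 4594.4, 3529.1 and 4080.2, and the dimmest, RPL15A, had 328.8, 420.3 and 254.1. Ribosome biogenesis, the assembly line in the nucleolus, had 2 of 34 genes in the brightest 10% and a median percentile of 67.3. Those 2 were NOP58, a core protein of the small nucleolar particles that guide methylation of ribosomal RNA, at 576.7, 1336.4 and 1311.9, and TIF6, a factor of the large subunit, at 672.0, 871.2 and 723.9. The translation factors had 6 of 18 in the brightest 10%, with elongation factor YEF3 at 2749.6, 3343.1 and 4378.4. The cap-binding protein CDC33, outside the brightest 10%, had 316.1, 516.4 and 194.7. The dimmest biogenesis gene was UTP4, of the small-subunit processome, at 11.6, 24.2 and 17.0.

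The cell wall list had 17 of 33 genes in the brightest 10% and 2 silent. FLO5, a flocculin, was silent, and FLO11, the adhesin of filamentous growth, had 58.1, 22.6 and 38.3. Of 27 cell cycle genes, 2 were in the brightest 10%, and both act in the separation of mother and daughter cells: the chitinase CTS1 had 2378.4, 2454.3 and 2369.9, and the glucanase DSE2 had 977.5, 648.4 and 848.8. CLB6, a cyclin of S phase, was above the floor on 1 array at 17.6. Of 28 genes against oxidative damage, 12 were in the brightest 10% and 1 was silent, with the peroxiredoxin TSA1 at 2968.8, 3193.1 and 2946.7. The proton and cation list had 6 of 16 in the brightest 10% and 2 silent, with PMP3, a small membrane protein, at 1811.2, 1074.4 and 1990.4. The zinc and copper list had 2 of 15 in the brightest 10% and 1 silent, and the superoxide dismutase SOD1 had 2186.4, 1958.5 and 1627.4. Histones were measured for 5 genes, with HTB1 at 1146.8, 1397.6 and 1693.2 and the centromeric histone CSE4 at 63.6, 60.0 and 63.4. The sodium pump gene ENA5 was silent at 0.2, 0.7 and 0.2, and whether this strain carries the gene was not checked.

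Genes often used as references covered a wide range, with 4 of 11 in the brightest 10% and 1 silent. Actin, ACT1, had 4031.7, 3387.1 and 4162.8, and PDA1, of pyruvate dehydrogenase, had 1295.6, 1624.0 and 1583.2. The tubulin gene TUB1 was the most variable of them at 966.0, 559.2 and 392.0. The ribosomal RNA entry RDN18-1 was silent at 0.3, 0.5 and 0.5, which is a reading of that probe set and not of the RNA content.

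Paralogs are gene copies left by duplication, in yeast often by the duplication of the whole genome, and their members are frequently used under different conditions. Of 134 pairs listed, 124 had both members measured. Both members were in the brightest 10% in 31 pairs and exactly 1 member in 39. In 8 pairs exactly 1 member was silent, and in 0 pairs were both silent. The 124 pairs held 243 different genes, so these 8 silent members were a smaller share than the 8.89% of all genes. Since a silent value is an upper bound and probe sets differ, these pairs show which copy was read above the floor and not by how much the copies differ.

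The 8 pairs with 1 silent copy came from several functions. PET9, the main mitochondrial ADP/ATP carrier, had 2141.0, 1390.4 and 1624.6, while AAC3, the copy expressed without oxygen, had 1.0, 2.9 and 1.9. Of the glutathione peroxidases, GPX1 had 671.0, 410.5 and 335.5 and GPX2 was silent at 7.6, 9.8 and 11. GAL3 was measured and GAL1 was silent, as given above. PHO3, the constitutive acid phosphatase, had 34.9, 49.6 and 46.5 while PHO5 was silent. GZF3, a repressor of nitrogen genes, had 49.4, 64.3 and 49.6 while its paralog DAL80 was silent. MF(ALPHA)1 was measured with MF(ALPHA)2 silent, and MIG2 with MIG3 silent. The last of these rests on a single value, 15.4 for MIG2 on array 3. In 6 of the 8 pairs the measured copy was below the brightest 10% and below 100 on every array.

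In 7 pairs 1 member was in the brightest 10% and the other below the median gene. These were CDC19 with PYK2, GPD1 with GPD2, CYC1 with CYC7, COX5A with COX5B, HYP2 with ANB1, PET9 with AAC3 and LEU4 with LEU9. The dim members CYC7, COX5B, ANB1 and AAC3 are forms known to be used when oxygen is low. CYC1, the main cytochrome c, had 2035.2, 1815.5 and 1379.6, and CYC7 had 46.8, 86.7 and 54.7. HYP2 had 5253.5, 3930.9 and 5709.1, and ANB1 had 11.6, 16.7 and 10.7. These pairs were picked by brightness, so the contrast within them is a description. Pyruvate kinase CDC19 had 4264.4, 3124.6 and 2910.9, and PYK2 had 41.6, 55.3 and 29.8. The alpha-isopropylmalate synthases of leucine synthesis, LEU4 and LEU9, had 3758.2, 2607.6 and 2067.1, and 43.7, 94.2 and 57.5. GPD1, a glycerol-3-phosphate dehydrogenase known for osmotic stress, had 948.3, 824.4 and 1596.2, and GPD2, known for redox balance without oxygen, had 46.6, 56.6 and 66.3.

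**Figure D2:**
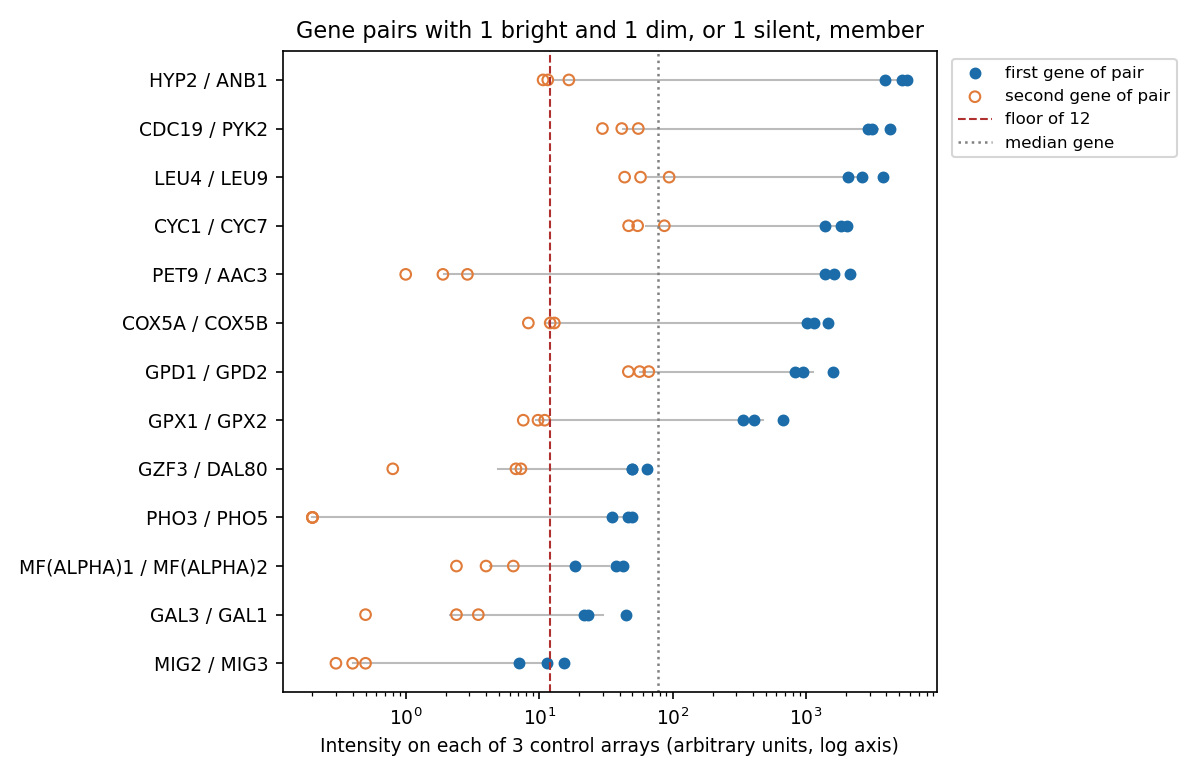
Intensities of both members of the pairs described, on a log axis, with a point for each of the 3 control arrays and the floor of 12 as a line. In the pairs shown with 1 silent member all points of that member lie at or below the line, and in pairs such as CDC19 with PYK2 the points of the 2 members do not overlap.

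Members of other pairs were bright together. HSC82 and HSP82, which encode the Hsp90 chaperone, had 3348.7, 3763.1 and 3508.4, and 1709.5, 1148.9 and 1367.7. The mitochondrial NADH dehydrogenases NDE1 and NDE2 had 1518.7, 1572.5 and 1575.5, and 667.7, 569.8 and 694.8. The homocitrate synthases of lysine synthesis, LYS20 and LYS21, had 1080.9, 2463.8 and 2904.2, and 1107.2, 1522.0 and 1853.5. Those 3 pairs lay in the brightest 10% with both members, and both lysine genes were lowest on array 1.

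Some pairs ran differently over the 3 arrays. HXK1 and HXK2, and ACS1 and ACS2, were described above. YGP1 was highest on array 1 at 2728.1, 1675.8 and 1653.2, where its paralog SPS100, a spore wall glycoprotein, was lowest at 124.4, 288.5 and 310.7. PGM2 had 813.6, 712.0 and 451.5, and PGM1, the minor phosphoglucomutase, had 79.4, 157.8 and 145.5. PDC6, the pyruvate decarboxylase isoform of sulfur limitation, had 28.3, 153.0 and 75.8. The a-factor gene MFA1 had 1341.3, 553.9 and 553.7, while MFA2 hardly moved, but MFA1 was read by a family probe set. With 3 arrays these orders describe the cultures at hand, and the pairs in the last 2 paragraphs were chosen after their values were seen.

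The 503 silent genes shared features that the rule did not use. Genes with no standard name, known by the systematic name alone, made up 29.8% of silent genes (150 genes), 3.71% of the brightest 10% and 9.23% of all genes. These shares count genes of every class. Outside the protein-coding class were 89 of the 503 silent genes and 170 of all 5656. Median gene length, over protein-coding genes alone, was 972.5 bases for silent genes and 895.5 for the brightest 10%, against 1249.5 for all. Genes for RNAs outside the protein-coding class were often silent, with 35 of 57 small nucleolar RNAs, 42 of 91 transfer RNAs and 4 of 4 small nuclear RNAs. Of 5486 protein-coding genes, 414 were silent. The mitochondrial chromosome had 16 of 19 genes silent. OLI1, subunit 9 of the ATP synthase, was in the brightest 10% at 1723.5, 870.2 and 1190.1. COX1, the core of cytochrome oxidase, fell outside the brightest 10% at 837.6, 259.3 and 446.3. COB was above the floor on array 3 alone, at 12.5, and COX2 and COX3 were silent. The protein-coding partners from the nucleus were mostly bright, as given above. How well the labelling captured mitochondrial transcripts and RNAs outside the protein-coding class was not tested. Their silent readings therefore do not show that the transcripts were absent.

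Silent genes were more frequent near chromosome ends. Counted in annotated genes from the nearer end of a nuclear chromosome in the RefSeq assembly R64, 28 of 67 measured genes in positions 1 to 5 were silent, or 41.8%. The share was 22.2% (28 of 126) in positions 6 to 10, 11.8% (34 of 288) in positions 11 to 20, 5.85% (34 of 581) in positions 21 to 40, and 7.93% (363 of 4575) farther in. The outermost 10 positions held 11.1% of silent genes, 1.94% of the brightest 10% and 3.41% of all genes. Genes near the ends often belong to families of similar copies, and genes without a probe set of their own are missing from these counts. Whether this strain carries all genes of that assembly, in the same positions, was not tested. A silent reading here therefore does not show that the gene was present but little transcribed. There were 16 runs of 3 or more neighbouring measured genes that were all silent, with 60 genes in all. The longest, of 8 genes, lay on the mitochondrial chromosome, and the next, of 6 genes, near the left end of chromosome I, around the permease gene SEO1. A run of 5 genes from COS12 to VEL1 lay on chromosome VII. The GAL7, GAL10 and GAL1 cluster was another. A group of neighbouring genes on chromosome XIV, PUL3, PUL4 and YNR064C, includes a transporter and a regulator linked to the iron-binding pigment pulcherrimin. These runs were singled out after their values were seen.

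**Figure D3:**
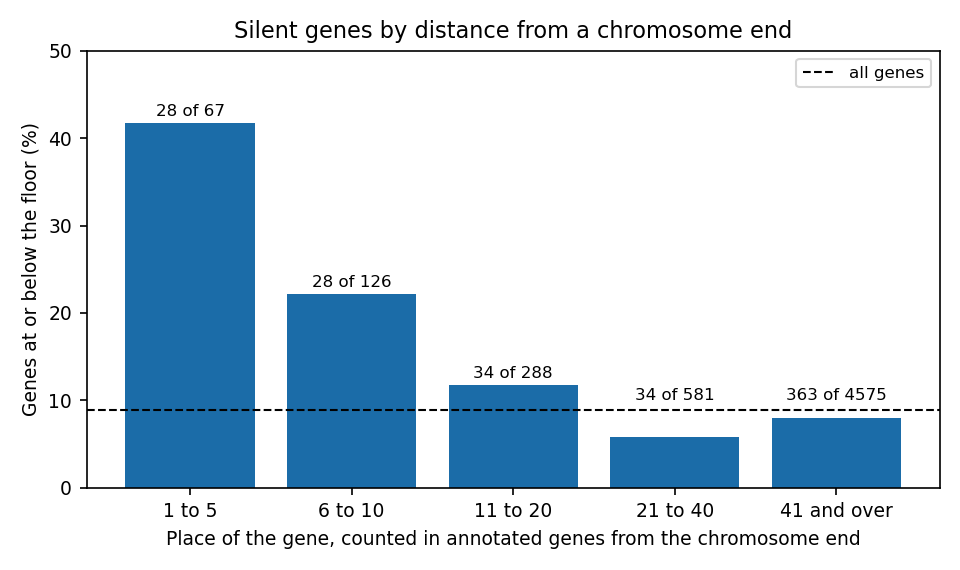
Share of measured genes that were silent on all 3 control arrays, in percent, by position from the nearer end of a nuclear chromosome counted in annotated genes. Numbers over the bars give silent of measured genes and the dashed line is the 8.89% of all genes. The first bar reaches 41.8% and the bar farthest from the ends 7.93%.

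The spread between the 3 arrays was small for most genes. The median SD was 0.28 on the log2 scale over all genes. Among the 4846 genes above the floor on all arrays it was 0.30, and 36 of them, or 0.743%, had an SD over 1. At that boundary UBP1 and DOT1 had an SD of 1.00 from above and BMT5 and RFC5 were at 0.998 and 0.996. The number depends on the arrays used: with 2 of the 3 it was 17 without array 1, 135 without array 2 and 120 without array 3. The median SD was 0.32 in the dimmest of 4 equal groups by brightness and 0.27 in the brightest. The spread holds culture, extraction and array together.

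Of the 36 variable genes, 27 owed their spread to a low value on array 1. The widest of those was ARX1, a factor of large-subunit assembly, at 22.1, 103.5 and 114.0, followed by RMT2, an arginine methyltransferase, at 37.2, 197.4 and 164.4, and KRR1, of the small-subunit processome, at 15.8, 58.6 and 82.8. AAH1, adenine deaminase, had 36.4, 158.6 and 160.0, and NSR1, a nucleolar protein, had 76.2, 306.8 and 354.3. Further genes of nucleolar function with this pattern were NOP56 at 42.0, 197.0 and 108.4, the RNA helicase DBP3 at 42.9, 197.2 and 134.2, CIC1 at 44.9, 162.5 and 173.6, and the polymerase I subunit RPA49 at 75.9, 246.7 and 264.3. On all of these, the readings of arrays 2 and 3 were closer to each other than to array 1 on the log2 scale. The helicase PRP43, of splicing and ribosome assembly, had 66.3, 207.4 and 260.6, and the seripauperin gene PAU13, read by a family probe set, had 82.9, 238.9 and 395.0. LYS9 of lysine synthesis had 203.6, 795.1 and 547.1, and the mitochondrial citrate carrier CTP1 had 73.4, 249.6 and 353.2. YDL218W, a gene without a standard name, had 161.8, 562.7 and 721.3, and PRM5, linked to pheromone and cell integrity signalling, had 51.7, 121.8 and 230.2. FSH1, a serine hydrolase, and MIS1, a mitochondrial enzyme of one-carbon metabolism, were also lowest on array 1. ARX1 and KRR1, together with IZH4 below, were chosen after their values were seen.

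High values on array 1 set the spread of 4 genes. SNR67, a small nucleolar RNA and the most variable gene of all with an SD of 1.83 on the log2 scale, had 628.6, 74.1 and 66.5. MAL11 and XBP1 were described above, and TOS6, a cell wall protein, had 696.9, 161.9 and 228.9. A low value on array 3 marked IZH4, of the family of membrane proteins linked to zinc, at 194.5, 71.2 and 21.1, DSE4, a glucanase of daughter cell separation, at 273.8, 175.1 and 62.7, and ARC35, of the Arp2/3 complex, at 200.4, 196.9 and 59.3. PEA2 was high on array 2 and MKC7 on array 3. Among the 849 genes with an SD over 0.5 but not over 1, 372 (43.8%) were low on array 1, against 29.3% of all genes above the floor on all arrays.

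**Figure D4:**
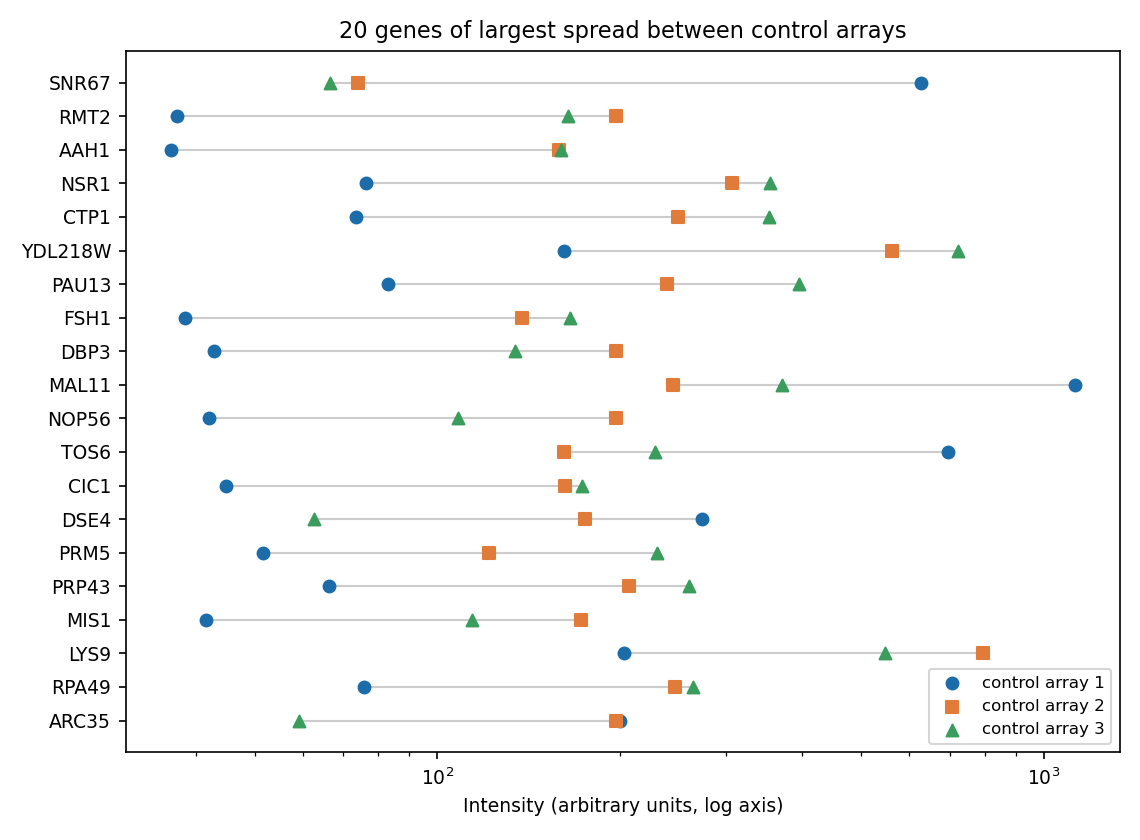
Intensities of the most variable genes on a log axis, with a point for each of the 3 control arrays. Most genes, such as RMT2, AAH1 and NSR1, have arrays 2 and 3 close together and array 1 low, and SNR67, MAL11 and TOS6 have array 1 high.

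The low readings of array 1 were shared by the ribosome biogenesis list as a whole. Array 1 was the lowest of the 3 for 32 of its 34 genes, where it was the lowest for 48.1% of all 5153 genes above the floor on any array. The median deviation of the list from each gene's own mean was -0.58 on array 1, 0.40 on array 2 and 0.30 on array 3 on the log2 scale, against -0.04, 0.05 and 0 for all genes. After quantile normalisation of the arrays it was -0.52 on array 1 and 30 of 34 genes were lowest there, against 39.2% of all genes. With each array scaled to a common 75th percentile the values were -0.51 and 31 of 34, against 39.9%. Array 1 also had the lowest median gene, 69.25, and the highest SPT15 ratio of 3′ to 5′ signal, 2.75, and the part of these in the result was not tested.

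Other lists moved less. Ribosomal protein genes had a median deviation of -0.18 on array 1, with 25 of 41 lowest there against 48.1% of all genes. With each array scaled to a common 75th percentile it was -0.10, with 20 of 41 lowest, near the 39.9% of all genes. After quantile normalisation it was -0.25, with 25 of 41 lowest against 39.2% of all genes, so the 2 scalings differed. General stress genes had 0.24 on array 1, the acetate and C2 list 0.37 with 10 of 16 highest there against 27.8% of all genes, beta-oxidation 0.19, and glycolysis 0.16 on array 1 and -0.22 on array 2. On array 1 these deviations kept their sign under quantile normalisation and under scaling to the 75th percentile. This held for ribosomal proteins, general stress, acetate and C2, beta-oxidation and glycolysis. The a-specific genes had -0.37 on array 1 and 0.36 on array 2, with 4 of 7 lowest on array 1, near the 48.1% of all genes. The lists were compiled with earlier results of these data known, and no test was made.

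**Figure D5:**
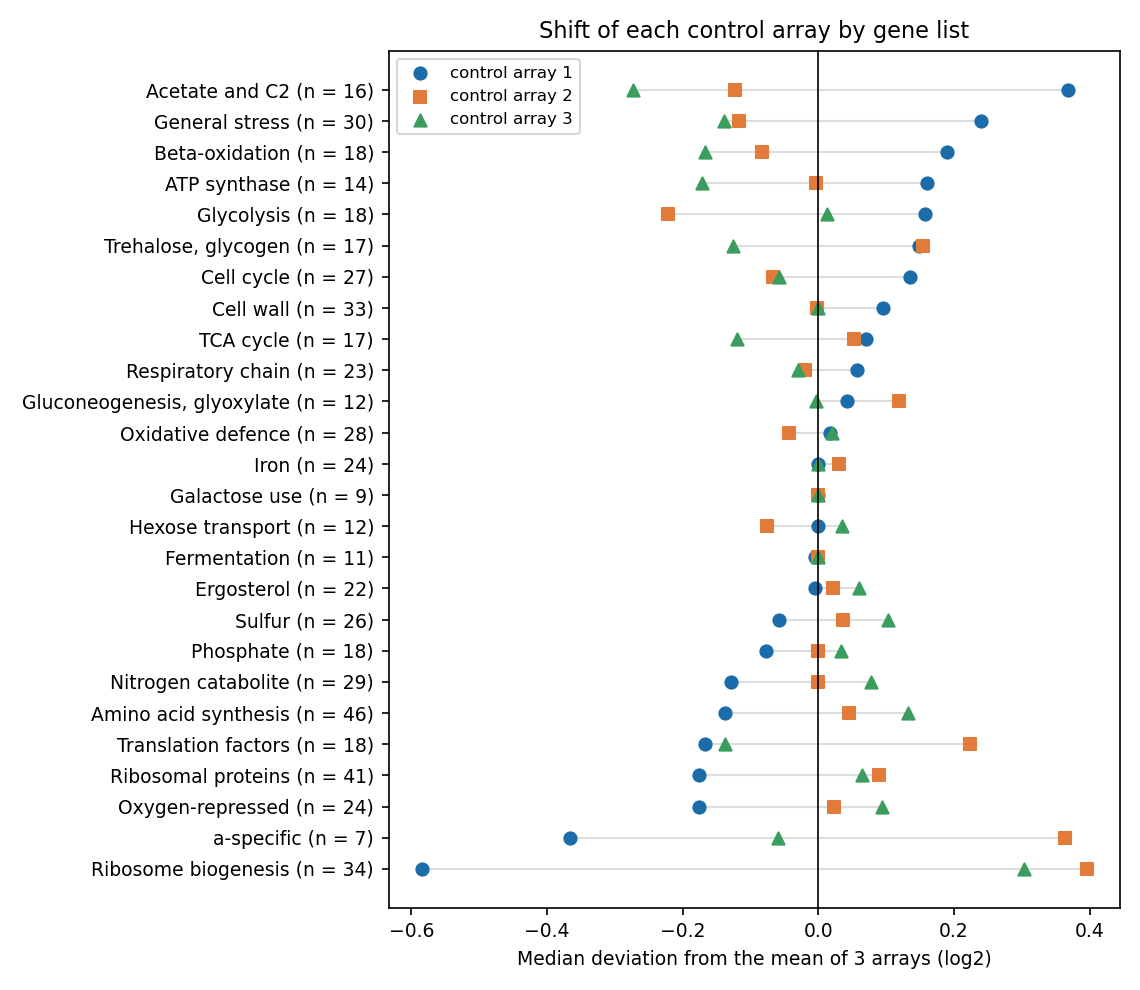
Median deviation of the genes of each list from their own mean over the 3 control arrays, on the log2 scale, for each array. Ribosome biogenesis lies at -0.58 on array 1 and at 0.40 and 0.30 on arrays 2 and 3, while the acetate and C2 list lies at 0.37 on array 1.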

How the data were processed

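The authors deposited 1 linear intensity for each probe set, made with GCOS 1.2 per the submitters' processing notes. How GCOS computed the signal is not given in the sources used here. In the deposited values, the mean of each control array after leaving out the highest and lowest 2% was 150.1. Per the labels' protocols, biotin-labelled cRNA made from total RNA was hybridised to Affymetrix YG-S98 arrays.

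Of 9335 probe sets, 60 were controls, 6504 had 1 gene in the platform annotation, 328 had several and 2443 were not listed there. Gene identifiers linked all 6504 to RefSeq's gene table (assembly R64). The array's genome build is not named, so no coordinates are given, and names, gene lengths and gene order come from that table. For 315 genes with several probe sets, the one with the highest mean over the control arrays was used. In these genes the probe sets differed by a median of 1.85 on the log2 scale, and by more than 1 in 211 genes.

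From the deposited values, log2 values were computed here after a floor of 12. SDs of intensity are over the 3 arrays without the floor, and SDs on the log2 scale with it. One group of 3 arrays gives no comparison between conditions, and no test was made. Replicate numbers follow deposit order and name an array only. No pair of arrays had more than 1.78% of probe sets with equal values. Python 3.11.15, numpy 2.4.6 and pandas 2.3.3 were used. The call of variable genes was tried on simulated data, and the choice of probe set on a small made-up table. Simulated silent genes were all drawn below the floor. Their recovery was thus fixed in advance and says nothing about values near the floor. The ranking was not tested.

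The members, the 37 gene lists and the 134 paralog pairs were chosen with earlier results of these data known. The genes named are the 20 brightest, the 20 of largest SD among genes above the floor on all arrays and at or above the median gene, and every member of the mating type, hexose transport, galactose, glycolysis, fermentation, acetate and gluconeogenesis lists. From every other list they are taken from among the 2 brightest, the dimmest and the member of largest SD, to which come the pairs with exactly 1 silent member and the 2 genes on each side of a threshold. Of these pairs 1 is counted but not reported here by name. Any other gene or pair named was chosen after its values were seen. The alternatives tried were other floors, scalings, probe set rules and SD limits, a pseudocount of 16 in place of the floor, and leaving out each array. No sequences are shown, since no sequence table was used here.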

Additional observations from a re-analysis of the deposited data

Results flagged for a closer look

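Probe sets outside the single-gene annotation carried signal on the control arrays. Of the 2443 probe sets listed for no gene, 528 were above the floor of 12 on all 3 arrays (21.6%), 245 were above the median gene on all 3, and 24 were above 1000 on all 3. Of the 328 probe sets listed for several genes, 241 were above the floor on all 3 arrays (73.5%), 181 were above the median gene and 83 were above 1000. Among the single-gene probe sets 5192 of 6504 were above the floor on all 3 arrays (79.8%). The series has no blank array against which these values could be set. A group of 3 arrays is too small for a check of single outlying samples.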

How the results depend on the processing

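The counts at the floor moved most with the floor itself. The 503 silent genes became 57 with a floor of 1 and 1785 with a floor of 50, and were 506 to 644 under the other alternatives. The 36 genes with an SD over 1 became 92 with a floor of 1, 14 with a floor of 50, 10 with log2(value + 16) and 885 with an SD limit of 0.5, and ranged between 17 and 135 when 1 array was left out. Pairs with exactly 1 silent member numbered 8, against 2 with a floor of 1, 17 with a floor of 50 and 13 with the dimmest probe set of each gene. The share of silent genes without a standard name, 29.8%, was 16.6% with a floor of 50 and 25.5% with the dimmest probe set. The brightest 10% shared at least 535 of its 566 genes with the main set under every alternative run. The ribosome biogenesis deviation of array 1 stayed between -0.58 and -0.46. No result reversed. The causes were not tested, beyond fewer arrays entering when 1 is left out. No paired analysis was possible because only 1 group was used and replicate numbers only name an array. Array number and signal near the floor limit what can be read for dim genes.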

Other observations

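Several families of genes that share the first letters of their names, grouped after their values were seen, were low together on array 1. All 16 measured NOP genes and all 18 UTP genes, both of nucleolar ribosome assembly, were lowest there, with median deviations of -0.68 and -0.66 on the log2 scale. Of the TRM genes of transfer RNA modification, 13 of 15 were lowest on array 1, with a median of -0.54, and of the RPC genes of RNA polymerase III 10 of 11, with -0.48. Array 1 was lowest for 48.1% of all genes above the floor on any array.

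The seripauperin family PAU, cell wall mannoproteins known to be induced without oxygen, had no silent member among 10 measured, near the 8.89% of all genes. Of the 10, 9 were lowest on array 1, against 48.1% of all genes above the floor on any array. Their median deviation there was -0.78. PAU4 had 124.1, 378.2 and 265.3, and PAU7 had 89.9, 319.5 and 199.3. All 10 were read by family probe sets, so their signals cannot be separated.

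The HSP genes of heat shock proteins had 9 of 11 members highest on array 1, against 27.8% of all genes, with a median deviation of 0.29, and 9 of 11 in the brightest 10%. Genes of the SPO name, many of them for sporulation, had 9 of 17 silent, against 8.89% of all genes.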
